A study of Mus musculus with 8 samples.

Results

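The genes described are 10 transcription factors of the dorsal midline of the neural tube and of the neural crest: Msx1, Msx2, Msx3, Sox9, Sox10, Foxd3, Snai1, Snai2, Tcfap2a and Tcfap2b. They were taken by name from the deposited tables, in which Tcfap2a and Tcfap2b stand for the genes now called Tfap2a and Tfap2b, and all 10 were found among 26608 listed genes. Levels were compared between regions and between dams in neural tube cut by laser from cryosections of FVB mouse embryos at gestation day 8.5. There were 2 libraries from each of 4 groups: closed neural tube of diabetic dams (15 and 16), closed neural tube of normal dams (11 and 12), open neural tube of diabetic dams (13 and 14) and open neural tube of normal dams (09 and 10). Closed tissue lay just behind closure site 1 and open tissue just in front of it, so the regions also differ in axial position. The sources used here do not say how diabetes arose in the dams, how many embryos or litters were pooled per library, or whether the regions were taken from shared embryos. The p-values thus speak to variation among these 8 libraries, which may be partly technical.

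Neural crest cells form at the border between neural plate and surface ectoderm, which lies at the dorsal midline once the folds have met. BMP and Wnt signals at this border induce Msx, Pax3 and AP-2 factors. These in turn act upstream of Foxd3, Sox9, Sox10 and the Snail repressors, with which crest cells are specified and leave the epithelium. In the mouse, trunk crest leaves the neural tube after the folds meet, whereas cranial crest begins to leave before closure. Several of the factors are also made outside the neural tube: AP-2 factors in surface ectoderm, Sox9 in somites and notochord, and Snail factors in mesoderm.

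The assay, SOLiD SAGE, counts short tags from near the 3′ end of transcripts, so a level does not scale with transcript length. A level in CPM is a gene's count per 1000000 counts of its library. Library totals ran from 5041586 to 16655583, and 1 count was worth between 0.06 and 0.198 CPM. To show what such a tag would read, the last CATG (the NlaIII site usual in SAGE, assumed here) was located in the principal coding transcript of each gene in GENCODE M21 (GRCm38). Each 27-base stretch beginning there was found in the transcripts of no other gene. The deposited tables hold gene counts and no tags, so these are predicted sites. They are shown for the genes on which the results turn, with the CATG in capitals.
Msx1: CATGctggtgcttcaccaaggtaggtt
Msx3: CATGgaatttcacagtgatagatggcc
Sox9: CATGcctctgcaagtgtgtgtgccgtg
Foxd3: CATGgccacgcaccagcccctgtcgct
Snai2: CATGtgatggatgcagtaatacaatgc
Tcfap2a: CATGgggagaaaaataaagtttatttg

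The site lies in the 3′ UTR for Msx1 (chromosome 5), Msx3 (chromosome 7), Sox9 (chromosome 11), Snai2 (chromosome 16) and Tcfap2a (chromosome 13), and in the coding exon for Foxd3 (chromosome 4). It starts 742 bases from the transcript's end in Foxd3 and 486 or fewer bases from it in the other 5. The tag shown is that of 1 of 6 annotated coding transcripts for Tcfap2a and of 1 of 2 for Msx3, so counts of these genes may rest on other tags as well.

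Expression of the 10 genes spanned more than 2 orders of magnitude. Msx1 averaged 423 CPM over the 8 libraries, above 96.6% of the 11779 genes tested. Msx3 averaged 71.6 CPM and Sox9 60.2 CPM. Snai1, Tcfap2a, Snai2 and Msx2 averaged 15.9, 15.4, 9.07 and 5.62 CPM, and Tcfap2b, Sox10 and Foxd3 averaged 3.2, 3.08 and 1.02 CPM. Only Msx1, Sox9 and Snai1 had counts in all 8 libraries. All 10 had a count in diabetic closed libraries 15 and 16 and in normal closed library 11, and 7 in normal closed library 12. Among open libraries, 6 had a count in diabetic library 13, 4 in diabetic library 14, 9 in normal library 09 and 7 in normal library 10. Zeros were common throughout: 3.34% to 11.4% of the tested genes were at 0 in a closed library and 9.25% to 20.2% in an open one. Diabetic open library 13 stood apart from the other 7: it was low in Sox2 and in summed neural progenitor markers and high in summed paraxial mesoderm ones, as detailed with the Snail genes. In sections of mixed tissue, fewer cells of a type and less RNA per cell cannot be told apart.

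**Figure D1:**
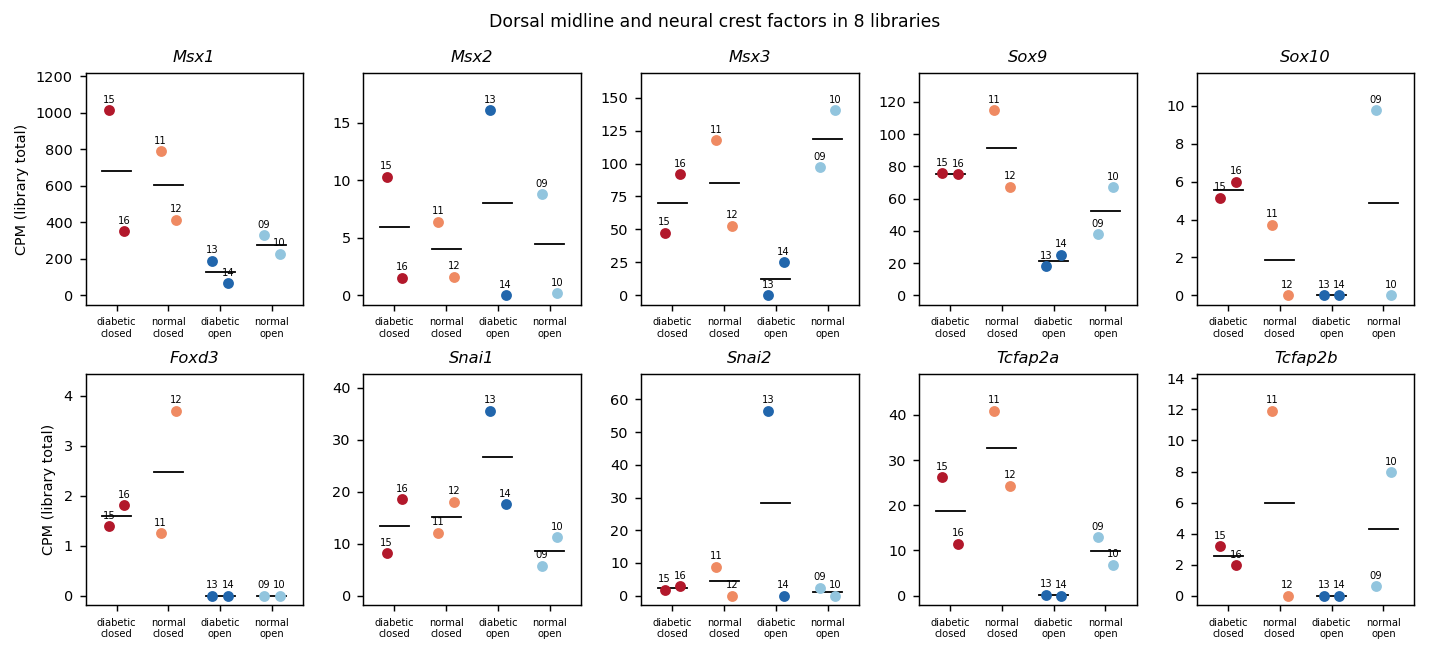
Levels of the 10 genes in CPM, 1 panel per gene with its own linear axis from 0; points are libraries with their numbers, and lines are means of the 2 libraries of a group. Msx1, Sox9 and Foxd3 were higher in each of the 4 closed libraries than in any open one, and Snai2 stood apart at 56.6 CPM in diabetic open library 13.

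The Msx genes encode homeodomain repressors that BMP signals induce; Msx1 and Msx2 mark the dorsal midline, and Msx3 is confined to the dorsal neural tube in the mouse. Msx1 stood at 1015 and 352 CPM in closed tissue of diabetic dams and at 791 and 414 CPM in closed tissue of normal dams, against 190 and 67.7 CPM in open tissue of diabetic dams and 329 and 227 CPM in open tissue of normal dams. Closed and open libraries did not overlap, although the lowest closed library (352 CPM) lay close to the highest open one (329 CPM). Closed tissue averaged 643 ± 315 CPM, against an average of 204 ± 108 CPM for open tissue (SD, n = 4 each). The log2 fold change was 1.80 (SE 0.46), with an unadjusted p of 0.00247 and an adjusted p of 1.00 by edgeR, and it was 1.93 (SE 0.52) without library 13. The 2 closed groups overlapped each other, while in open tissue both libraries of diabetic dams were below both of normal dams.

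Msx3 had another order. It stood at 47.6 and 91.9 CPM in closed tissue of diabetic dams and 118 and 52.9 CPM in closed tissue of normal dams, against 0 and 25.2 CPM in open tissue of diabetic dams and 97.3 and 140 CPM in open tissue of normal dams. Both diabetic open libraries were the lowest of the 8, both normal open libraries were among the 3 highest, and closed and open libraries overlapped. For closed against open tissue the log2 fold change was 1.03 (SE 1.14, adjusted p = 1.00 by edgeR), and 0.26 (SE 0.48) without library 13. The library at 0, diabetic open 13, was the deepest, and a count of 0 there allows up to 0.18 CPM by counting error alone.

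Msx2 was the least abundant of the 3 Msx genes. It stood at 10.3 and 1.53 CPM in closed tissue of diabetic dams and 6.41 and 1.63 CPM in closed tissue of normal dams, against 16.1 and 0 CPM in open tissue of diabetic dams and 8.79 and 0.176 CPM in open tissue of normal dams. In each group 1 library was high and its partner low, so the spread within groups was as large as that between them (log2 fold change -0.28, SE 1.56, for closed minus open tissue).

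Tags do not scale with length, so the counts of the 3 Msx genes were set against each other within a library. How fully the transcripts of each gene yield tags was not measured, so the shares describe counts and not transcripts. Msx1 made up 94.6% and 79% of them in closed tissue of diabetic dams and 86.5% and 88.4% in closed tissue of normal dams, against 92.2% and 72.9% in open tissue of diabetic dams and 75.6% and 61.8% in open tissue of normal dams. Exact Clopper-Pearson 95% intervals ran from 59.7% to 63.9% for the lowest share and from 94% to 95.2% for the highest, and they cover counting error only. Diabetic open library 13 was the one in which Msx2 (7.8%) and not Msx3 made up the remainder.

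**Figure D2:**
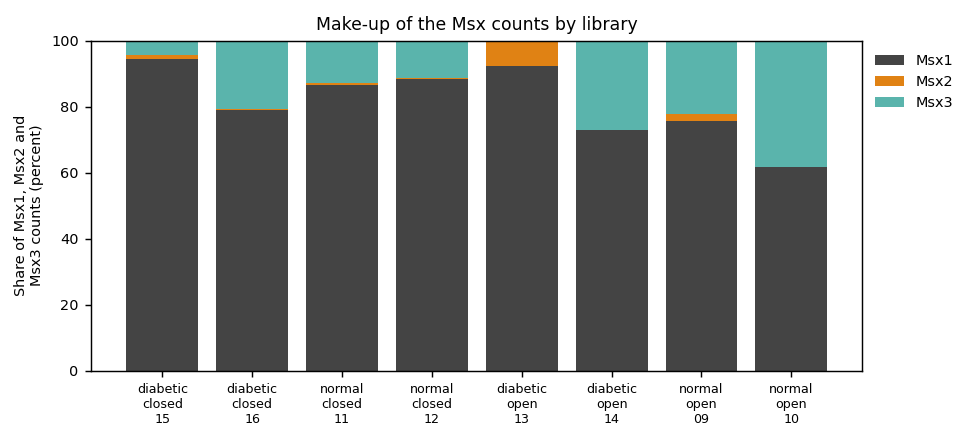
Share of the summed Msx1, Msx2 and Msx3 counts taken by each gene, in percent, in each library. Msx1 took the largest share throughout, between 61.8% and 94.6%, and Msx3 is missing from diabetic open library 13.

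Sox9 and Sox10 are related HMG-box factors; Sox9 is made in early crest and also in somites and notochord, and Sox10 marks migrating crest. Sox9 stood at 75.8 and 75.1 CPM in closed tissue of diabetic dams and 115 and 67.5 CPM in closed tissue of normal dams, against 18 and 25.1 CPM in open tissue of diabetic dams and 38 and 67.2 CPM in open tissue of normal dams. All 4 closed libraries were above all 4 open ones, but normal closed library 12 exceeded normal open library 10 by less than the counting error (95% Poisson intervals of 61.5 to 74 and 60.6 to 74.3 CPM). Closed tissue averaged 83.3 ± 21.4 CPM, against an average of 37.1 ± 21.8 CPM for open tissue (SD, n = 4 each). The log2 fold change was 1.35 (SE 0.34, unadjusted p = 0.00213, adjusted p = 1.00 by edgeR), and 1.14 (SE 0.36) without library 13. Diabetic open tissue was the lowest group, at 21.5 ± 5.03 CPM (n = 2), and did not overlap any other.

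Sox10 was sparse. It stood at 5.16 and 6 CPM in closed tissue of diabetic dams and 3.74 and 0 CPM in closed tissue of normal dams, against 0 in both open libraries of diabetic dams and 9.78 and 0 CPM in open tissue of normal dams. The highest library was thus an open one, normal 09, while 4 of the 8 libraries had no count. Between the regions of diabetic dams, 69 counts in closed tissue stood against 0 in open tissue, at least 47.2-fold higher when 3 counts over the group are taken as the limit. That bound covers counting error only, and 1 library each of normal closed and normal open tissue was also at 0.

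Foxd3, a forkhead factor that maintains crest progenitors, had counts in each closed library and in no open one. It had 7 and 13 counts in diabetic closed libraries 15 and 16 and 7 and 25 in normal closed libraries 11 and 12, against 0 in the 4 open libraries. These are levels of 1.39, 1.81, 1.25 and 3.7 CPM, and the open libraries allow 0.18 to 0.529 CPM each. With 3 counts over the 4 open libraries as the limit, the level was at least 28.8-fold higher in closed tissue, by counting error alone. The gene passed the filter on low counts through the closed libraries and so had to differ; no p is given for it, and it is left out of the counts of members between regions. Of all genes tested, 0.178% (21 genes) had a count in each closed library and none in any open one, and 0.00849% (1 gene) had the reverse pattern.

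The Snail genes encode zinc-finger repressors of Cdh1, and crest as well as mesoderm cells use them to leave an epithelium. Snai1 stood at 8.13 and 18.6 CPM in closed tissue of diabetic dams and 12.1 and 18.1 CPM in closed tissue of normal dams, against 35.6 and 17.5 CPM in open tissue of diabetic dams and 5.73 and 11.3 CPM in open tissue of normal dams. The regions overlapped (log2 fold change -0.04, SE 0.64), and in open tissue both libraries of diabetic dams were above both of normal dams. Snai2 stood at 1.79 and 2.79 CPM in closed tissue of diabetic dams and 8.9 and 0 CPM in closed tissue of normal dams, against 56.6 and 0 CPM in open tissue of diabetic dams and 2.47 and 0 CPM in open tissue of normal dams. A single library, diabetic open 13, held 943 of the 1047 Snai2 counts and also the highest Snai1 and Msx2.

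That library was also high in several markers of mesoderm and endothelium. Pdgfra, a receptor of mesenchymal cells, stood at 475 CPM in it (29.9 to 158 CPM in the other 7), Twist1, a factor of mesoderm and crest, at 316 CPM (15 to 113 CPM), Gata4, a factor of heart and endoderm, at 87.7 CPM (0 to 4.36 CPM), and Tek, an endothelial receptor, at 106 CPM (0 to 30.1 CPM). Sox2, a factor of neural progenitors, stood at 30.9 CPM (287 to 549.8 CPM in the others). The 12 markers of paraxial mesoderm summed to 1972 CPM there, against 163 to 1016 CPM elsewhere, with all 12 detected. Not each of them peaked there: Meox1, Tbx6, Tcf15, Aldh1a2 and Uncx were higher in diabetic closed library 15. Of the 11 lateral mesoderm and heart markers 5 were detected in library 13, and of the 10 endothelial markers 7. The 8 neural progenitor markers summed to 1742 CPM, against 2468 to 3406 CPM elsewhere. Lin28a alone made up most of that sum in each library, at 1566 CPM in library 13 and 1613 to 2424 CPM elsewhere. The sum thus shows little of the other markers. The part of such cells in the levels of Snai2, Snai1 and Msx2 was not tested. Without library 13, the log2 fold change of Snai2 for closed minus open tissue was 2.995 (SE 2.75), against -0.92 (SE 2.61) with it, and that of Msx2 was 1.34 (SE 2.39).

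The AP-2 factors Tcfap2a and Tcfap2b act in crest and surface ectoderm, and Tcfap2a is needed for closure of the cranial neural tube in mice. Tcfap2a stood at 26.2 and 11.4 CPM in closed tissue of diabetic dams and 41 and 24.3 CPM in closed tissue of normal dams, against 0.18 and 0 CPM in open tissue of diabetic dams and 12.9 and 6.88 CPM in open tissue of normal dams. Closed tissue stood higher within each kind of dam, and across dams only diabetic closed library 16 and normal open library 09 overlapped. Closed tissue averaged 25.7 ± 12.1 CPM, against an average of 5 ± 6.18 CPM for open tissue (SD, n = 4 each). The log2 fold change was 4.07 (SE 1.28, unadjusted p = 0.00869, adjusted p = 1.00 by edgeR), 3.05 (SE 1.17) without library 13 and 2.39 with the dam left out of the model. The 2 open libraries of diabetic dams held 3 Tcfap2a counts together, and those of normal dams 170. Per count sequenced, diabetic closed tissue exceeded diabetic open tissue 146-fold, with an exact 95% interval of 49.4 to 715 for counting error only.

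Tcfap2b stood at 3.17 and 1.95 CPM in closed tissue of diabetic dams and 11.9 and 0 CPM in closed tissue of normal dams, against 0 in both open libraries of diabetic dams and 0.592 and 7.94 CPM in open tissue of normal dams. Like Sox10, it had counts in both closed and in neither open library of diabetic dams (30 against 0 counts, at least 20.5-fold higher by counting error alone), and no such order in normal dams.

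Over both dams, 6 of the 9 genes other than Foxd3 had a positive log2 fold change for closed minus open tissue, against 55.5% of all genes tested, with a median of 1.35 against 0.07. At an unadjusted p below 0.05 there were 3 of the 9 on the higher side (Msx1, Sox9 and Tcfap2a) and 0 on the lower, against 2.31% and 1.01% of all genes. In 2 of the 9 (Msx1 and Sox9) all closed libraries were above all open ones, against 1.68% of all genes, and in 0 members they were all below, against 1.07%. At an adjusted p below 0.05, edgeR called 0 members and 0% of all genes. DESeq2 called 9 genes (0.0764%), 2 of them members: Msx1 (adjusted p = 0.0163) and Tcfap2a (0.0471). limma-voom called 0 members and 0% of all genes. For Msx1, the adjusted p ranged from 1.81e-10, by edgeR with no filter on low counts, to 1.00 over 14 alternatives, and for Tcfap2a it ranged from 0.00548 to 1.00.

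**Figure D3:**
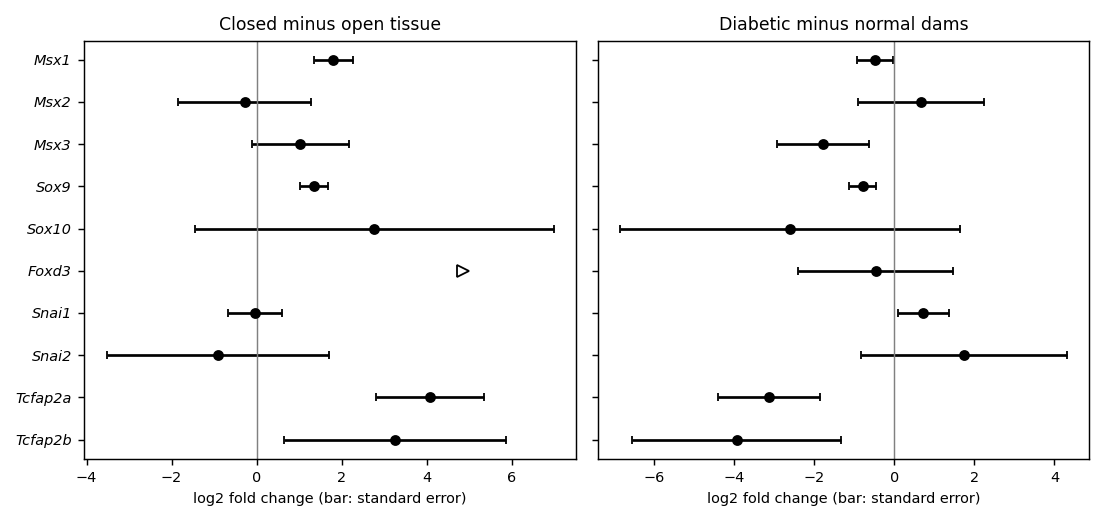
Log2 fold changes of the 10 genes from edgeR for closed minus open tissue (left) and diabetic minus normal dams (right), with standard errors as bars, 8 libraries each. The open triangle for Foxd3 is a lower bound from 3 counts over the open libraries (log2 4.85). Msx1 and Sox9 had the smallest errors (0.46 and 0.34 on the left) and Sox10 the largest (4.22).

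Cdh1, the E-cadherin of surface ectoderm, followed the order of Msx1 in closed tissue. It stood at 119 and 44.1 CPM in closed tissue of diabetic dams and 115 and 46.3 CPM in closed tissue of normal dams, against 43.3 and 20.1 CPM in open tissue of diabetic dams and 15.3 and 20.1 CPM in open tissue of normal dams. The closed libraries with high Cdh1, diabetic 15 and normal 11, were also the closed libraries with the highest Msx1, Msx2 and Tcfap2a. The 10 surface ectoderm markers summed to 101 to 266 CPM in closed and 61.2 to 334 CPM in open libraries, with 8 to 9 and 5 to 8 of them detected. The highest sum was that of diabetic open library 13. Krt18 was the leading marker in each open library and Cdh1 in each closed one. Trp63, the p63 factor of surface ectoderm, was at 0 in library 13 and detected in the other 7. The part of surface ectoderm in the levels of Msx1, Msx2 and Tcfap2a was not tested.

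**Figure D4:**
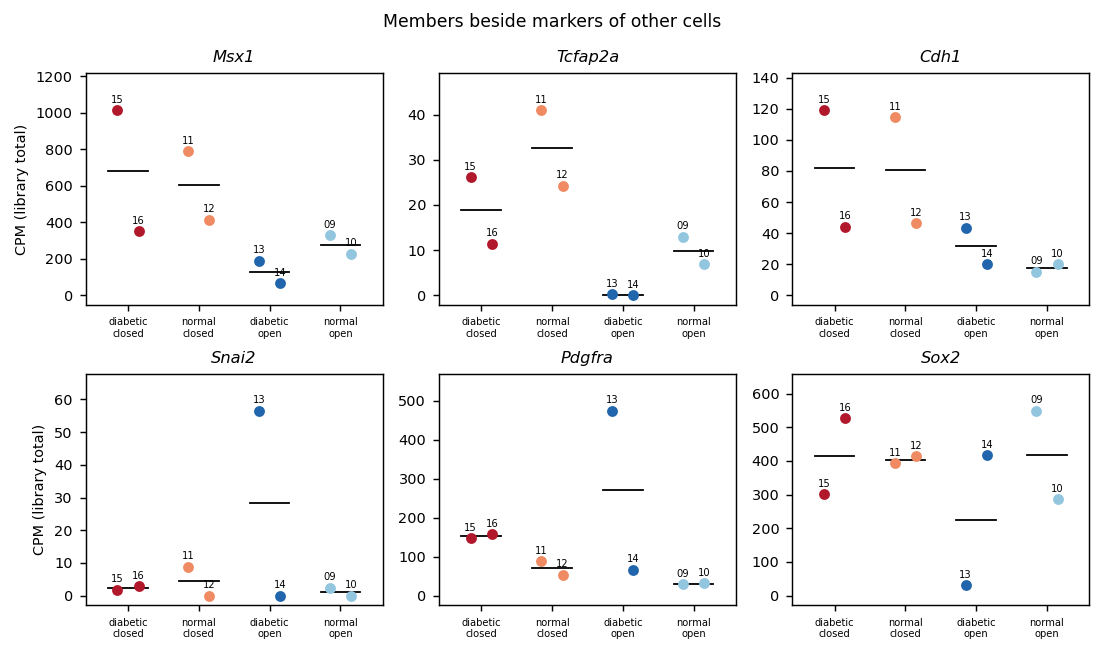
Levels (CPM, linear axes from 0) of 3 members, Msx1, Tcfap2a and Snai2, beside Cdh1 of surface ectoderm, Pdgfra of mesenchyme and Sox2 of neural progenitors; points are libraries with their numbers and lines are group means. Diabetic closed library 15 and normal closed library 11 were the highest closed libraries for Msx1, Tcfap2a and Cdh1, and diabetic open library 13 was highest for Snai2 and Pdgfra and lowest for Sox2.

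Between dams, 0 of the 10 genes were higher in all libraries of diabetic dams than in any of normal dams (2.48% of all genes), and 0 were lower in all of them (1.15%). In the model of both regions, 3 members had a positive and 7 a negative log2 fold change for diabetic minus normal dams (52.7% of all genes were positive), with a median of -0.63 against 0.04. At an unadjusted p below 0.05 there were 0 members on the higher side (2.97% of all genes) and 2 on the lower (1.58%). Sox9 averaged 48.5 ± 31.3 CPM in libraries of diabetic dams and 71.9 ± 31.8 CPM in those of normal dams (SD, n = 4 each). Its log2 fold change was -0.79 (SE 0.33, unadjusted p = 0.0378, adjusted p = 1.00 by edgeR). Tcfap2a averaged 9.45 ± 12.4 CPM in libraries of diabetic dams and 21.3 ± 15 CPM in those of normal dams (SD, n = 4 each). Its log2 fold change was -3.13 (SE 1.27, unadjusted p = 0.0314, adjusted p = 1.00 by edgeR). Without library 13 these folds were -0.58 (SE 0.35) and -2.10 (SE 1.16), with unadjusted p of 0.127 and 0.0929 by edgeR. After adjustment, edgeR and limma-voom each called 0 members and 0% of all genes, and DESeq2 called 0 members and 0.314% of all genes. All 4 libraries of diabetic dams had Ddx3y, a Y-linked gene, at 188 to 267 CPM, whereas of the normal dams closed library 12 and open library 10 had it at 0.444 and 0.882 CPM. The sex of the embryos and the dam can thus not be fully told apart.

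Markers of other tissues also moved with the dam. Of the 11 tested paraxial mesoderm markers 11 were positive for diabetic minus normal dams (median 1.80), against 52.7% of all genes. At an unadjusted p below 0.05 by edgeR 6 of them were positive, against 2.97% of all genes. In closed tissue alone 0 of them had such a p, and in open tissue alone 4 did. Over both regions 5 of 7 endothelial markers were positive with such a p. Of 4 tested markers of primitive blood 3 were positive and 1 negative, all with such a p. By edgeR 0 of these passed after adjustment, and DESeq2 called Pdgfra, Tek and Hba-x over both regions. Paraxial mesoderm markers summed to 1016 and 786 CPM in closed tissue of diabetic dams and 495 and 359 CPM in closed tissue of normal dams. In open tissue they summed to 1972 and 303 CPM with diabetic dams and 163 and 447 CPM with normal dams, so those groups overlapped. Hba-x, an embryonic globin, stood at 891 and 994 CPM in open tissue of diabetic dams and 61.6 and 1.06 CPM in open tissue of normal dams. In closed tissue it stood at 4.36 and 203 CPM with diabetic dams and 0.356 and 0.296 CPM with normal dams. Both open libraries of diabetic dams, 14 as well as 13, were thus high in it. The 8 blood markers summed to 2.52 to 1010 CPM over the 8 libraries, with 1 to 5 of them detected, and Hbb-y was at 0 in each. Endothelial markers summed to 316 and 137 CPM in open tissue of diabetic dams and 58.2 and 59.6 CPM in open tissue of normal dams, with Erg at 0 throughout. The part of these tissues in the members' differences between dams was not tested.

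In open tissue, 5 members were lower in both libraries of diabetic dams than in either of normal dams (Msx1, Msx3, Sox9, Tcfap2a and Tcfap2b, against 15.1% of all genes) and 1 was higher (Snai1, against 17.4%). At an unadjusted p below 0.05 there were 0 on the higher side (3.96%) and 4 on the lower (Sox9, Sox10, Tcfap2a and Tcfap2b, against 3.26%). That of Sox10 rests on normal open library 09, without which both groups are at 0. Over 13 alternatives, each library left out among them, the log2 fold change ran from -1.63 to -0.89 for Sox9 and from -9.11 to -5.72 for Tcfap2a. Some of these fits leave a group with a lone library, so they do not show any of these p to be stable. In some of them those of Sox9 and Tcfap2b rose above 0.05. Without diabetic open library 13 that group has no Tcfap2a count, so the fold of that fit is not a size. The smallest p was that of Tcfap2a (0.000438, adjusted p = 0.323 by edgeR), which DESeq2 called (adjusted p = 0.000296) among 1.69% of all genes, whereas edgeR called 0%. The median over the members was -1.21, or -1.29 with Sox10 and Tcfap2b at their bounds and without Foxd3, which had no count in any open library. In closed tissue 0 members were lower in both libraries of diabetic dams (12.5% of all genes), 1 was higher (Sox10, against 18.7%), and the median was -0.30. At an unadjusted p below 0.05 closed tissue had 0 members on the higher (0.908%) and 0 on the lower side (0.263%). These comparisons share libraries with the comparisons of regions, so they are not independent of them.

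The same values were compared between the regions within each kind of dam. Msx1 differed by 2.45 (SE 0.61) on the log2 scale in diabetic dams and by 1.15 (SE 0.59) in normal dams, and Sox9 by 1.85 (SE 0.45) in diabetic and 0.85 (SE 0.44) in normal dams. Tcfap2a differed by 7.30 (SE 1.27) in diabetic and 1.75 (SE 0.95) in normal dams, and Msx3 by 2.53 (SE 1.44) in diabetic and -0.43 (SE 1.35) in normal dams. Without library 13, which is 1 of the 2 diabetic open libraries, the folds in diabetic dams were 3.38 for Msx1, 1.63 for Sox9 and 1.51 for Msx3. For Tcfap2a that fit gave 10.05, but the library left in the group, 14, had a Tcfap2a count of 0. The value is therefore not read as a size. Over all libraries left out in turn, that of Msx1 ran from 1.497 (without diabetic closed library 15) to 3.38 in diabetic dams and from 0.59 (without normal closed library 11) to 1.53 (without normal closed library 12) in normal dams. In diabetic dams 4 of the 9 members other than Foxd3 (Msx1, Sox9, Sox10 and Tcfap2a) had an unadjusted p below 0.05 on the higher side (2.28% of all genes) and 0 on the lower (0.501%). Of the 9, all but Msx2, Snai1 and Snai2 were higher in both closed libraries than in either open one (6 members, against 18.5% of all genes), and 0 were lower in both (15.3%). Between these regions DESeq2 called Msx1 (adjusted p = 0.00323) and Tcfap2a (3.41e-05) among 0.399% of all genes. In normal dams 0 of the 9 had an unadjusted p below 0.05 on the higher (2.31%) and 0 on the lower side (1.09%), while 4 (Msx1, Sox9, Snai1 and Tcfap2a) were higher in both closed libraries (14.9%) and 0 lower in both (13.6%). Tested directly, the difference between these differences did not pass for any member: its unadjusted p was 0.00378 for Tcfap2a (log2 5.55, SE 1.47), 0.147 for Msx1, 0.137 for Sox9 and 0.163 for Msx3, with adjusted p = 1.00 each by edgeR. Tcfap2a was the 1 member with an unadjusted p below 0.05 in this test, on the higher side (2.01% of all genes), and 0 were on the lower (1.72%). Over 13 alternatives, the fold between the regions of diabetic dams ran from 6.63 to 10.05 for Tcfap2a and from 1.51 to 12.2 for Msx3. Leaving out diabetic open library 13 leaves that group with library 14 and its Tcfap2a count of 0. Leaving out library 14 leaves it with library 13 and its Msx3 count of 0. A fold fitted to a group at 0 has no upper limit in the counts. Without library 14 or diabetic closed library 16, calls changed among all genes as well as among members. In these fits the lone library was assumed to vary like the other groups, so their calls are not read here.

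**Figure D5:**
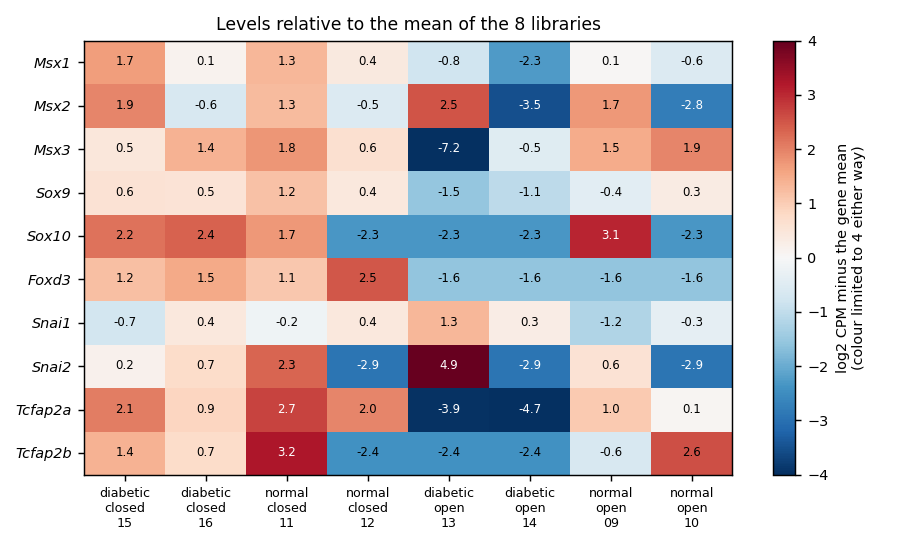
Level of each gene in each library as log2 CPM (TMM-scaled, prior count 2) minus the gene's mean over the 8 libraries. Diabetic closed libraries 15 and 16 and normal closed library 11 were above the mean for 9 of 10 genes each, and diabetic open library 14 was below it for 9 of 10.

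Of 20 listed genes of the dorsal neural tube and plate border 13 were tested. For closed minus open tissue 12 had a positive log2 fold change (median 0.89), where 55.5% of all genes were positive. For diabetic minus normal dams 10 had a negative one (median -0.62), where 52.7% of all genes were positive. After adjustment edgeR, DESeq2 and limma-voom called 0 of them over both dams and over both regions. DESeq2 called Olig3 between the regions of diabetic dams (0.399% of all genes) and Wnt3a between dams in open tissue (1.69%). At an unadjusted p below 0.05 edgeR had 1 higher between regions (2.31% of all genes). Between dams it had 0 (2.97% of all genes were higher and 1.58% lower). The zinc-finger gene Zic2 had the smallest p between regions (0.0315): it stood at 29.2 and 44 CPM in closed tissue of diabetic dams and 45.1 and 70.6 CPM in closed tissue of normal dams, against 13.6 and 28.8 CPM in open tissue of diabetic dams and 26 and 36.3 CPM in open tissue of normal dams. The paired-box gene Pax3 stood at 136 and 50.5 CPM in closed tissue of diabetic dams and 75 and 98.3 CPM in closed tissue of normal dams, against 7.75 and 34.7 CPM in open tissue of diabetic dams and 56.6 and 112 CPM in open tissue of normal dams. Wnt3a, a ligand of the dorsal midline, had a log2 fold change of -4.12 (SE 2.10) between dams, with 0 CPM in both open libraries of diabetic dams. Wnt1, another such ligand, ranged from 5.34 to 14.1 CPM in closed and from 0 to 11.9 CPM in open libraries.

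Of the 15 tested genes in a list of other neural crest genes, 6 were positive for closed minus open tissue (median -0.23) and 10 for diabetic minus normal dams (median 0.30). Of all genes, 55.5% and 52.7% were positive. Over both dams and over both regions the 3 tools called 0 of them, while DESeq2 called Twist1 between dams in open tissue (1.69% of all genes). At an unadjusted p below 0.05 edgeR had 0 between regions and 2 between dams, both higher (2.97% of all genes). Crabp1, a retinoic acid binding protein of hindbrain crest, had the smallest p between regions (0.0931, log2 fold change -1.21, SE 0.66). It stood at 1261 and 4875 CPM in closed tissue of diabetic dams and 5320.03 and 2846 CPM in closed tissue of normal dams, against 1129.71 and 16888 CPM in open tissue of diabetic dams and 9480 and 6114 CPM in open tissue of normal dams. Twist1 (log2 fold change 1.80, SE 0.58) and Nrp1, a semaphorin receptor of crest and endothelium (1.70, SE 0.68), were those 2, and both were highest in diabetic open library 13.

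Of the 17 tested genes of BMP signalling, 9 were positive between regions (median 0.06) and 10 between dams (median 0.23), against 55.5% and 52.7% of all genes. Both edgeR and limma-voom called 0 of them. DESeq2 called Fst between dams over both regions (0.314% of all genes) and in open tissue (1.69%). At an unadjusted p below 0.05 edgeR had 1 higher in each comparison, against 2.31% of all genes between regions and 2.97% between dams. Id3, which BMP signals induce, stood at 1226 and 783 CPM in closed tissue of diabetic dams and 1190 and 734 CPM in closed tissue of normal dams, against 577 and 416 CPM in open tissue of diabetic dams and 931 and 851 CPM in open tissue of normal dams. Its log2 fold change was 0.61 (SE 0.26, unadjusted p = 0.0406, adjusted p = 1.00 by edgeR). Fst, the BMP and activin antagonist follistatin, was higher in each library of diabetic dams (54.7 to 125 CPM) than in any of normal dams (23.5 to 32.3 CPM). Of all genes tested, 2.48% had that order. The log2 fold change of Fst was 1.68 (SE 0.33, unadjusted p = 0.000356, adjusted p = 0.938 by edgeR). Id1, a relative of Id3, had a log2 fold change of 0.93 (SE 0.44) between dams. Grem1, a BMP antagonist, was seen in 2 closed libraries at most at 2.31 CPM and in no open one, so no fold is given.

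Of the 8 tested genes of the ventral neural tube 5 were positive between regions (median 0.08) and 4 between dams (median -0.15), against 55.5% and 52.7% of all genes. None was called by the 3 tools in these comparisons, and 0 had an unadjusted p below 0.05. Dbx1 had the smallest p between regions (0.0852), at 1.19 to 53.1 CPM in closed and 2.22 to 231 CPM in open libraries. Foxa2, a floor plate factor, had a log2 fold change of 0.63 (SE 0.51) between regions. Between dams Pax6, a factor of the intermediate tube, had one of -1.07 (SE 0.52) and Nkx6-2 one of -1.34 (SE 1.59).

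Patterns most like those of Msx1 and Msx3, the 2 members with the highest mean level, were sought among 8070 genes by the mean absolute difference of centred log2 CPM over the 8 libraries. For Msx1 the nearest were Sipa1l3 (0.345), Mat2b (0.413), Trub2 (0.439), A430078G23Rik (0.46) and Dll1 (0.464), a Notch ligand. Among the members the nearest to Msx1 was Sox9 (0.625). For Msx3 the nearest were Cpne5 (0.6), Fndc5 (0.632), E2f2 (0.723), Pdcd6 (0.755) and Kbtbd11 (0.758). Each of these 5 was at or near 0 in diabetic open library 13 (0 to 4.14 CPM), where Msx3 had no count. They were chosen by likeness over the same 8 libraries, so a low level there follows largely from the choice.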

How the data were processed

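The authors deposited raw SAGE tag counts per gene symbol, 1 file per library (Gene and Count columns, per the file headers), made with the SOLiD SAGE kit from 7 ng of total RNA, per the labels' protocols. The submitters' processing notes name mm9 as the build. The sources used here do not name the aligner, the annotation, the use of strand or how ambiguous tags were handled. No coordinates are printed, since the reference is GRCm38.

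Each file listed 26608 genes, and 15162 had a count. Levels are CPM on the library total, while tests use TMM scaling. Tests ran in R 4.3.3 with edgeR 4.0.16: filterByExpr with the 4 groups, a minimum count of 10 and a minimum total of 15 left 11779 genes, all 10 members among them. The quasi-likelihood F test was fitted to a model of region and dam, and to the 4 groups for the contrasts, with Benjamini-Hochberg adjustment over all genes and a threshold of 0.05. Standard errors are those implied by F. The median standard error was 0.67 (log2) for region in the additive model and 1.34 for the interaction in the model of 4 groups. The additive fit for region was also run on simulated counts, and the outcome of that check is not given here. Alternatives were DESeq2 1.42.0, limma-voom (limma 3.58.1), RLE factors, library totals, no filter, models without the other factor, and each library left out.

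Where a group had no count, the bound on a fold uses 3 counts over the group. Intervals and bounds cover counting error only. No library pair agreed within sampling noise. Named genes are the members, up to 2 genes per pathway list with the smallest p in each of the comparisons of region and dam, 5 nearest patterns, and Pax3, Wnt1, Sox2, Cdh1, Pdgfra, Twist1, Gata4 and Tek. Krt18, Trp63, Hba-x, Hbb-y, Erg, Olig3, Ddx3y, Meox1, Tbx6, Tcf15, Aldh1a2 and Uncx were named after their values were seen. Of the genes the rule names, 1 is not reported here. Members and lists were chosen with earlier results of these data known.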

Additional observations from a re-analysis of the deposited data

Results flagged for a closer look

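Values were examined in the 4 closed, the 4 open, the 4 diabetic and the 4 normal libraries for each of the 10 genes, and 4 stood far from the other 3 of their set. The rule flags about 1 in 20 sets by chance if values are normally distributed, which counts with many zeros are not. A gene with a count in only 1 library of a set is flagged at any level, as Sox10 was. Snai2 stood at 56.6 CPM in diabetic open library 13, far from the other open libraries (next 2.47 CPM) and from the other libraries of diabetic dams (next 2.79 CPM). Sox10 reached 9.78 CPM in normal open library 09, while the other 3 open libraries had none. Tcfap2b reached 7.94 CPM in normal open library 10, against at most 0.592 CPM in the other open libraries.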

How the results depend on the processing

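By edgeR 0 members passed in each of the 7 comparisons, and RLE factors, library totals and limma-voom also gave 0, as did models without the other factor in the 2 comparisons over all libraries. DESeq2 called 2 members among 9 genes between regions, 2 among 47 between the regions of diabetic dams and 1 among 199 between dams in open tissue. With no filter on low counts (15162 genes tested) edgeR called 2 members among 29 genes between regions and 1 among 89 between dams. It called 3 among 41 between the regions of diabetic dams, 2 among 138 between dams in open tissue and 1 among 23 in the interaction. Leaving out 1 library changed the calls of members and of all genes in some comparisons. Such fits keep more genes, because the filter then follows a group of 1 library, so their calls are not counted here. No paired analysis was run, because no replicate number occurs in more than 1 group and the labels give no other pairing. Whether regions were taken from shared embryos is not stated. The sign of some folds of low genes turned. Limma-voom gave 1.13 for Msx2 between regions and 0.047 for Sox10 between dams. With 1 library left out, the log2 fold change between regions ran from -0.94 to 1.34 for Msx2, from -0.41 to 0.36 for Snai1 and from -3.95 to 2.995 for Snai2. Between dams it ran from -0.95 to 1.85 for Msx2, from -5.76 to 1.37 for Sox10, from -0.75 to 0.22 for Foxd3 and from -2.14 to 4.79 for Snai2. The cause was not tested. Msx1 kept its sign between regions whichever library was left out (1.28 to 2.11), as did Sox9 (1.14 to 1.61) and Tcfap2a (3.002 to 5.45).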
